A study of Homo sapiens with 12 samples.

Results

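The aryl hydrocarbon receptor (AhR) pathway was followed through 7 genes, found by symbol in every library: AHR, ARNT, AHRR, CYP1A1, CYP1B1, TIPARP and NQO1. They were 7 of the 19907 gene symbols analysed and 7 of the 18579 genes with enough reads to be tested. The cells were MDA-MB-231, an established human triple-negative breast cancer line that expresses the glucocorticoid receptor (GR) encoded by NR3C1. One line, wt-GR, was a clone recovered from the CRISPR-treated population with GR left unedited, and the other, S134A-GR, was clone #1 of the knock-in in which alanine replaced Ser134 of GR on both alleles. Each line is 1 clone, so the GR change and other differences between the 2 clones cannot be told apart. Before treatment every culture spent 18 h in IMEM with 1% DCC, a serum stripped of steroids with charcoal. TGFβ1, where given, was at 10 ng/mL and acted for 6 h, the control was vehicle, and no label names an AhR ligand. The 4 groups (wt-GR vehicle, wt-GR TGFβ1, S134A-GR vehicle and S134A-GR TGFβ1) held 3 libraries each, 12 in all. No label says that the 3 libraries of a group came from separate cultures, so the spread between them may be technical.

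AhR is a ligand-activated transcription factor of the bHLH-PAS family. It waits in the cytosol with HSP90 chaperones, moves into the nucleus when a ligand such as a dioxin or a tryptophan metabolite binds it, pairs with ARNT and binds response elements whose core is GCGTG. CYP1A1 and CYP1B1, monooxygenases that oxidize many AhR ligands, are its classical targets, and AHRR and TIPARP are targets that in turn restrain the receptor. NQO1, a quinone reductase, is shared with the oxidative stress factor NRF2.

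The response elements are shown first, because they are the sequence feature through which the receptor reaches its targets. RefSeq start sites (GRCh38, the assembly also called hg38) were at hand for 6 of the 7 genes, 9 starts in all, and the core TNGCGTG was sought on both strands in the 1500 bases before each start. Of all 35116 starts searched in the same way, 23.2% held at least 1 match, 3.66% at least 2 and 0.0740% at least 4. CYP1A1 held 5 matches, ARNT 2, AHRR 1 and TIPARP 1 (before the third of its starts only, inside the gene), while none was found before the AHR or NQO1 start. The 9 matches are given with 10 bases on either side, each read on the strand where the core runs as TNGCGTG, with the 7 core bases in capitals.
CYP1A1, 1385 bases upstream, chr15:74726897-74726923 (+): aaagttgtatTTGCGTGcctagctcaa
CYP1A1, 1061 bases upstream, chr15:74726573-74726599 (-): ccctccccccTCGCGTGactgcgagcc
CYP1A1, 986 bases upstream, chr15:74726498-74726524 (+): tgcccaggcgTTGCGTGagaaggaccg
CYP1A1, 898 bases upstream, chr15:74726410-74726436 (+): cccggctagcTTGCGTGcgccggcgac
CYP1A1, 503 bases upstream, chr15:74726015-74726041 (+): gagtcccggcTCGCGTGagaagcgctg
AHRR, 32 bases upstream, chr5:321672-321698 (+): ggcgggcggcTCGCGTGccggggtggg
TIPARP, 676 bases upstream of the third start, chr3:156675978-156676004 (+): gcgcgcgcgcTTGCGTGtgtacgcgca
ARNT, 1176 bases upstream, chr1:150877759-150877785 (-): gccaggcgtgTGGCGTGcgcctgtaat
ARNT, 633 bases upstream, chr1:150877216-150877242 (-): ttgcccagacTGGCGTGcagtggcgct
The core was followed by A in 3 of the 5 CYP1A1 matches and in none of the others.

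The densest stretch before CYP1A1, chr15:74726290-74726589 on the minus strand, holds 3 of its 5 cores within 300 bases, in capitals as they read toward the gene (2 of them as the reverse complement, CACGCNA).
CYP1A1 upstream stretch: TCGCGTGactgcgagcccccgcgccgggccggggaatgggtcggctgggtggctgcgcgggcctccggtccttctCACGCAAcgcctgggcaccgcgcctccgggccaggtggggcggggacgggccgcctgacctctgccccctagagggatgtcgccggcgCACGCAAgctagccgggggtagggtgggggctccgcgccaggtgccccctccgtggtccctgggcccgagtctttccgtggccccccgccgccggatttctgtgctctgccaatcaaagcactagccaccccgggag
The 250 bases before the first AHRR start, chr5:321464-321713 on the plus strand, hold 1 core close to the start. Of all starts, 4.52% had a match within 250 bases.
AHRR promoter: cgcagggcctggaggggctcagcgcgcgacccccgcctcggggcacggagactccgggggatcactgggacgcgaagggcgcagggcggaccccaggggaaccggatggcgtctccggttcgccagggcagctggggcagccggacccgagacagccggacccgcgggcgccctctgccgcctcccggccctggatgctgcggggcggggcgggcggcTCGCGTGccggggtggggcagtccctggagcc
A match describes letters only, and no match says only that these letters were not in the window.

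**Figure D1:**
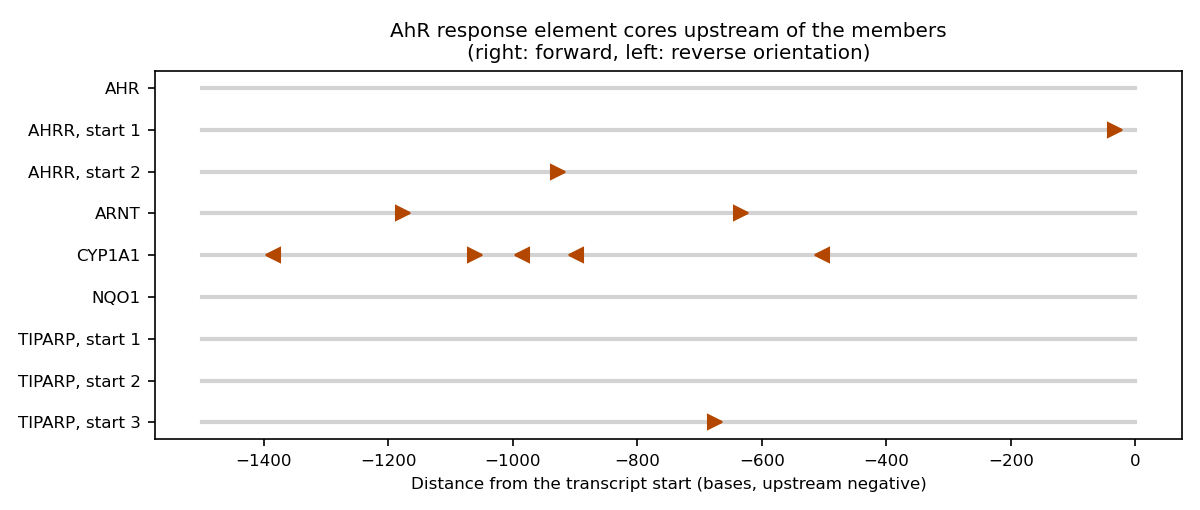
Positions of the core TNGCGTG (triangles, pointing right for the forward and left for the reverse orientation) in the 1500 bases before each RefSeq start, with distance from the start in bases on the x axis and 1 row per start. CYP1A1 carries 5 cores, AHRR has 1 that lies 32 bases from its first start and 928 bases from its second, and the AHR, NQO1 and first 2 TIPARP rows are empty.

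Reads recovered from the deposited values came to between 56362036 (first wt-GR vehicle library) and 129832227 (second wt-GR TGFβ1 library) per library, in units of the smallest value above 0, which was taken as 1 read though the sources used here do not say whether it is a read or a pair. By that unit 3 reads, the limit that a count of 0 allows, were worth 2.15 to 4.89 normalized counts. The recovered reads averaged more than the sequencing depth that the paper gives, so this worth is uncertain. Every AhR pathway gene was above 3 reads in all 12 libraries. Levels are normalized counts, given as mean ± SD (n = 3). The markers of the cell line were strongly expressed (VIM at 422927 ± 3379 in wt-GR vehicle), whereas ESR1, which marks luminal cells, had group means of at most 6.02. GATA3 and FOXA1, also luminal markers, were expressed, GATA3 at 808.4 ± 20.1 in wt-GR and 1093 ± 79.4 in S134A-GR vehicle libraries and FOXA1 at 229.1 ± 11.3 and 289.4 ± 11.8, both higher in S134A-GR cells (0.43 and 0.34). TFF1, from the same luminal list, went the other way, at 29.2 ± 9.80 in wt-GR and 2.61 ± 2.26 in S134A-GR vehicle libraries. The latter lay near or under the worth of 3 reads. NR3C1, the edited gene, was lower in S134A-GR cells by 0.41 on the log2 scale under vehicle and 0.31 under TGFβ1 (limma, adjusted p = 0.00012 and 0.0013), a level that does not check the point change. TGFβ1 raised its targets SKIL, by 1.62 (wt-GR) and 1.51 (S134A-GR), and SMAD7, by 1.19 and 1.32. Markers of other cell types also moved between the lines: the 3 endothelial markers summed to 1886 to 2032 normalized counts in wt-GR and 1447 to 1572 in S134A-GR vehicle libraries, the 4 luminal markers analysed to 1051 to 1076 and 1326 to 1495, the 2 leukocyte markers to 29.6 to 37.5 and 8.11 to 16.9, and the 2 liver markers to 11.6 to 20 and 25.3 to 45.4. These sums hold unlike genes. Of the endothelial markers under vehicle, CDH5 stood at 186.6 ± 31.1 in wt-GR and 19.0 ± 7.61 in S134A-GR libraries (-3.28). PECAM1 differed by -0.25, and VWF (-0.12) was not called. Of the leukocyte markers, CD14 stood at 30.4 ± 6.13 and 4.62 ± 2.55, while PTPRC stood at 3.87 ± 4.25 and 7.18 ± 2.28. Among the defining markers, PTPRC and ALB had group means of at most 7.18 and 7.10. Their part in the differences below was not tested.

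The first comparison asks how the pathway stood in S134A-GR relative to wt-GR cells. The receptor and CYP1B1 were lower in S134A-GR cells, CYP1A1 was higher with or without TGFβ1, AHRR was higher only in the vehicle groups, NQO1 was slightly higher, and ARNT and TIPARP overlapped. The 7 genes were selected on differences between these same groups of libraries, measured in an earlier look at them, so their differences are a description, given as log2 differences with SE and 95% interval from a limma fit of all genes and without p. Called means an adjusted p under 0.05 in that fit. Under vehicle 5 of the 7 were called, where 51.5% of all genes tested were. Of these 3 were higher (25% of all genes) and 2 lower (26.5%). Under TGFβ1 4 were called, where 48.8% of all genes were, 2 higher (23.1%) and 2 lower (25.7%). CYP1B1 alone was called with a log2 difference of at least 1 in size, in both settings, beside 9.51% of all genes under vehicle and 8.46% under TGFβ1. Nothing is read from these counts.

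AHR, the receptor, spans chr7:16916359-17346152 (+) in GENCODE 44. Its normalized counts were 4691, 4854 and 4393 in the wt-GR vehicle libraries and 2933, 3118 and 3066 in the S134A-GR vehicle libraries. After TGFβ1 they were 3725, 4098 and 3704 in wt-GR and 2738, 2561 and 2660 in S134A-GR cells. The 4 groups did not overlap at any step of the order from wt-GR vehicle through wt-GR TGFβ1 and S134A-GR vehicle to S134A-GR TGFβ1. The log2 difference between the lines was -0.61 (SE 0.052, 95% interval -0.72 to -0.50) under vehicle and -0.53 (-0.64 to -0.42) under TGFβ1. In a bulk library, fewer cells with a transcript and less of it per cell cannot be told apart. A sense transcript model, ENSG00000283321, shares 28.6% of the 75-base stretches of AHR and is not analysed here.

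ARNT, the partner that AhR needs to bind DNA (chr1:150809713-150876708, -), was nearly level. Its libraries ranged from 4593 to 4927 (wt-GR vehicle), 4838 to 5183 (wt-GR TGFβ1), 4521 to 4601 (S134A-GR vehicle) and 4768 to 5087 (S134A-GR TGFβ1). The lines overlapped in both settings, with a difference of -0.06 (95% interval -0.15 to 0.03) under vehicle and -0.01 (-0.10 to 0.08) under TGFβ1.

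CYP1A1 (chr15:74719542-74725536, -) stood at 273.7, 253.6 and 288.5 normalized counts in wt-GR vehicle and at 492.0, 427.8 and 465.0 in S134A-GR vehicle libraries. Under TGFβ1 it stood at 137.8, 142.8 and 151.7 in wt-GR and at 203.5, 177.2 and 201.7 in S134A-GR libraries. All S134A-GR libraries were above all wt-GR libraries of the same treatment. The log2 difference was 0.76 (SE 0.107, 95% interval 0.53 to 0.99) under vehicle and 0.43 (0.20 to 0.65) under TGFβ1.

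CYP1B1 (chr2:38066973-38109902, -) went the other way, at 2825, 2298 and 2254 in wt-GR vehicle and 1112, 1240 and 1171 in S134A-GR vehicle libraries. With TGFβ1 its counts were 1476, 1408 and 1510 in wt-GR and 747.5, 682.4 and 744.0 in S134A-GR cells. Each S134A-GR library was below each wt-GR library of its treatment, and the first wt-GR vehicle library lay above the other two. The difference was -1.06 (SE 0.080, 95% interval -1.23 to -0.89) under vehicle and -1.02 (-1.19 to -0.84) under TGFβ1. The count of CYP1A1 per count of CYP1B1 within a library was 0.112 ± 0.0156 in wt-GR vehicle, 0.0984 ± 0.00443 in wt-GR TGFβ1, 0.395 ± 0.0487 in S134A-GR vehicle and 0.268 ± 0.00699 in S134A-GR TGFβ1. The antisense gene CYP1B1-AS1, which shares 7.39% of the 75-base stretches of CYP1B1, had group means of 8.61 to 29.9. RMDN2, also antisense, shares 0.417% of them. Under vehicle it stood at 310.8 ± 20 in wt-GR and 163.7 ± 1.83 in S134A-GR libraries. Its difference between the lines was -0.92 under vehicle and -0.74 under TGFβ1, and a shared cause was not tested.

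AHRR, the repressor that competes with AhR for ARNT (chr5:321714-438291, +), had 985.8, 892.0 and 863.4 normalized counts in wt-GR vehicle and 1470, 1477 and 1410 in S134A-GR vehicle libraries. After TGFβ1 both lines came to the same range, at 457.7, 415.9 and 455.2 in wt-GR and 435.6, 502.2 and 397.7 in S134A-GR cells. The lines were apart under vehicle, by 0.67 (SE 0.087, 95% interval 0.48 to 0.86), and overlapped under TGFβ1, where the difference was 0.00 (-0.18 to 0.19). The count of AHRR per count of AHR was 0.197 ± 0.0132 in wt-GR and 0.478 ± 0.0210 in S134A-GR vehicle libraries, and 0.116 ± 0.0123 and 0.168 ± 0.0246 after TGFβ1.

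A readthrough transcript, PDCD6-AHRR, runs from the upstream gene PDCD6 into AHRR and covers 5561 exon bases of AHRR, 58.7% of its gene model, and 56.7% of its 75-base stretches. It is not analysed here under its own symbol, so AHRR reads in the shared exons cannot be assigned to either transcript. PDCD6 stood at 6635 ± 404 (wt-GR vehicle), 7180 ± 121.9 (wt-GR TGFβ1), 7687 ± 247.3 (S134A-GR vehicle) and 7987 ± 197.5 (S134A-GR TGFβ1). It was higher in S134A-GR cells by 0.21 under vehicle (limma, adjusted p = 0.00098), and the TGFβ1 differences of 0.12 in wt-GR and 0.06 in S134A-GR cells were not called. AHRR counts were 13.9% ± 1.86 and 6.17% ± 0.367 of PDCD6 counts for wt-GR cells without and with TGFβ1, and the S134A-GR values were 18.9% ± 0.263 and 5.57% ± 0.542. EXOC3, another neighbour at the locus, was higher in S134A-GR cells by 0.25 and lower after TGFβ1 by 0.14 (wt-GR) and 0.19 (S134A-GR).

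TIPARP, a mono-ADP-ribosyltransferase that modifies AhR (chr3:156673235-156706770, +), overlapped between the lines. Its libraries ranged from 5659 to 5819 in wt-GR vehicle and 5642 to 5860 in S134A-GR vehicle, and from 6316 to 6650 and 6337 to 6987 after TGFβ1. The difference between the lines was 0.00 (95% interval -0.08 to 0.09) under vehicle and 0.03 (-0.05 to 0.12) under TGFβ1.

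NQO1 (chr16:69706996-69726668, -) ranged from 32652 to 33402 in wt-GR vehicle and from 35139 to 35911 in S134A-GR vehicle libraries, and from 30953 to 31293 and 34158 to 36122 after TGFβ1. The S134A-GR libraries were higher in both settings by a small margin, 0.11 (95% interval 0.04 to 0.17) under vehicle and 0.16 (0.10 to 0.23) under TGFβ1. An antisense transcript, ENSG00000261602, shares 13.9% of its 75-base stretches and is not analysed here.

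**Figure D2:**
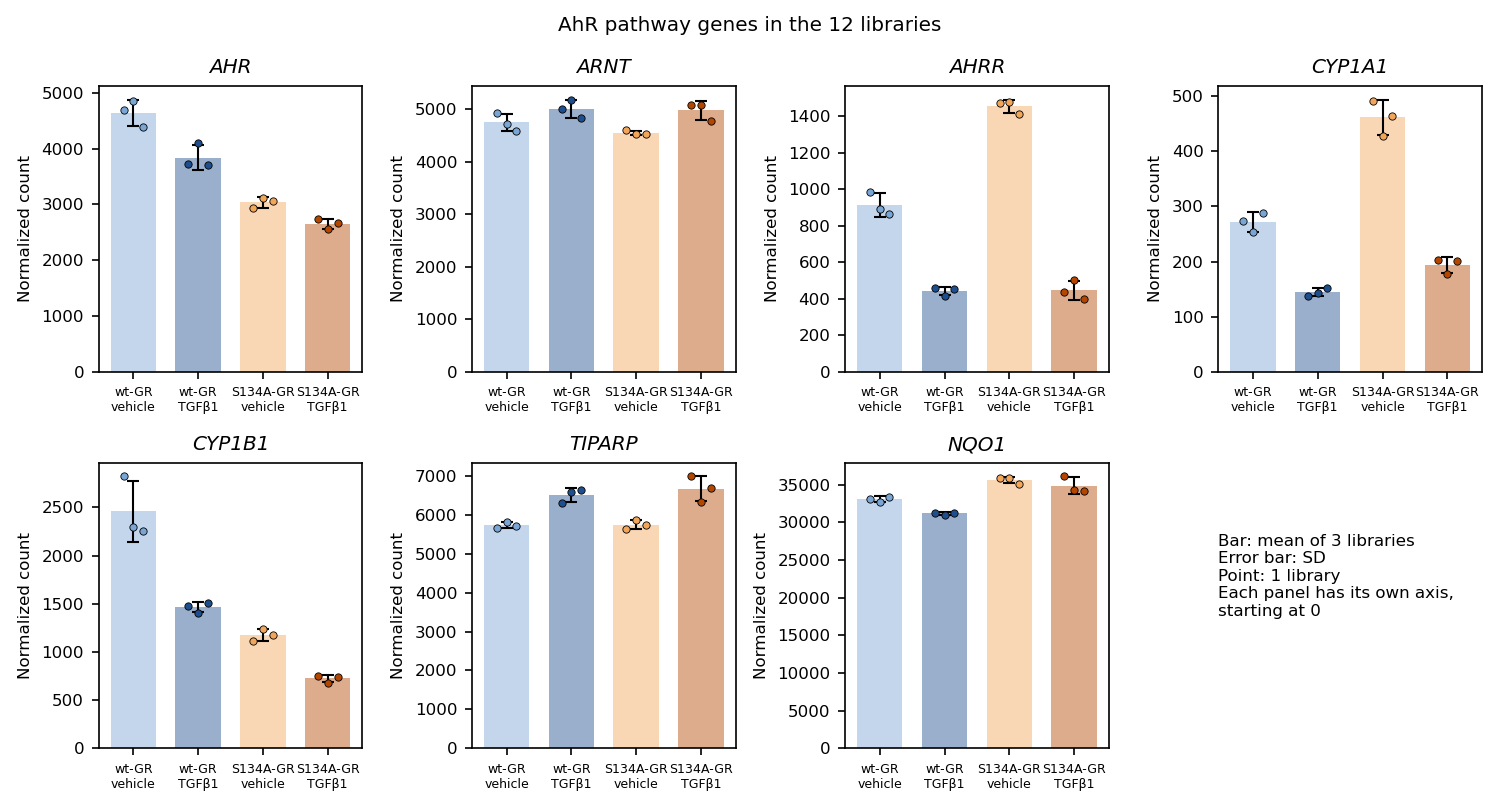
Normalized counts of the 7 genes (y axis, a separate scale from 0 in each panel) in the 4 groups (x axis). Points are single libraries, bars are means of 3 and error bars are SD; AHR and CYP1B1 are lower and CYP1A1 higher in S134A-GR cells, and AHRR falls from 1453 to 445.2 with TGFβ1 in S134A-GR cells and from 913.7 to 443.0 in wt-GR cells.

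The second comparison asks how the pathway responded to TGFβ1 in each line. In both lines TGFβ1 was accompanied by less AHRR, CYP1A1, CYP1B1 and AHR and by slightly more TIPARP. In wt-GR cells 5 of 7 were called, where 21% of all genes tested were, 1 of them higher (11.2% of all genes) and 4 lower (9.82%). In S134A-GR cells 6 of 7 were called, where 18.7% of all genes were, 2 higher (10%) and 4 lower (8.69%). A difference of at least 1 in size was called for AHRR in wt-GR cells (2.29% of all genes) and for AHRR and CYP1A1 in S134A-GR cells (1.66%). The 7 genes were selected on differences between these same groups, so nothing is read from these counts. On the log2 scale AHRR fell most of the 7, with -1.04 (SE 0.087) in wt-GR and -1.71 in S134A-GR cells. CYP1A1 followed with -0.91 (SE 0.107) and -1.25. CYP1B1 changed by -0.74 (SE 0.080) and -0.70, and AHR by -0.27 (SE 0.052) and -0.20. None of these groups overlapped. How many of all genes tested show no overlap was not counted, here or between the lines, so nothing is read from it. TIPARP rose by 0.18 (SE 0.040) in wt-GR and 0.21 in S134A-GR cells, again with no overlap. ARNT rose in S134A-GR cells by 0.13 (95% interval 0.04 to 0.22), and in wt-GR cells the groups overlapped at 0.08 (-0.01 to 0.17). For NQO1 the difference was -0.08 (-0.15 to -0.02) in wt-GR cells, not called although the groups did not overlap, and -0.03 (-0.10 to 0.03) in S134A-GR cells. The AHR call in S134A-GR cells was lost without the second (-0.18) or the third (-0.19) S134A-GR vehicle library or the second S134A-GR TGFβ1 library (-0.17). The ARNT call there was lost when any one of 7 libraries was left out, with values of 0.11 to 0.14: the second wt-GR vehicle, the first wt-GR TGFβ1, all 3 S134A-GR vehicle, and the first and second S134A-GR TGFβ1 libraries.

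The third comparison asks whether the responses differed between the lines, by subtracting the wt-GR difference with TGFβ1 from the S134A-GR one. AHRR was the only one of the 7 called, lower, where 0.414% of all genes were called, 0.167% higher and 0.248% lower. With a difference of at least 1 in size no member and 0.0592% of all genes were called. Because of the same selection, nothing is read from these counts either. The S134A-GR minus wt-GR value for AHRR was -0.67 (SE 0.123, 95% interval -0.93 to -0.40), with the lines apart under vehicle and overlapping under TGFβ1. That call was lost when any one of 9 libraries was left out, with values of -0.59 to -0.71: the second wt-GR vehicle, all 3 wt-GR TGFβ1, all 3 S134A-GR vehicle, and the first and the third S134A-GR TGFβ1 libraries. CYP1A1 leaned the same way at -0.33 (95% interval -0.66 to -0.01) and was not called. For AHR (0.08, -0.08 to 0.23), CYP1B1 (0.04, -0.20 to 0.29), TIPARP (0.03, -0.09 to 0.15), ARNT (0.05, -0.07 to 0.18) and NQO1 (0.05, -0.04 to 0.14) the intervals hold 0. The comparisons share libraries, so their values are set side by side and not counted as separate evidence.

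**Figure D3:**
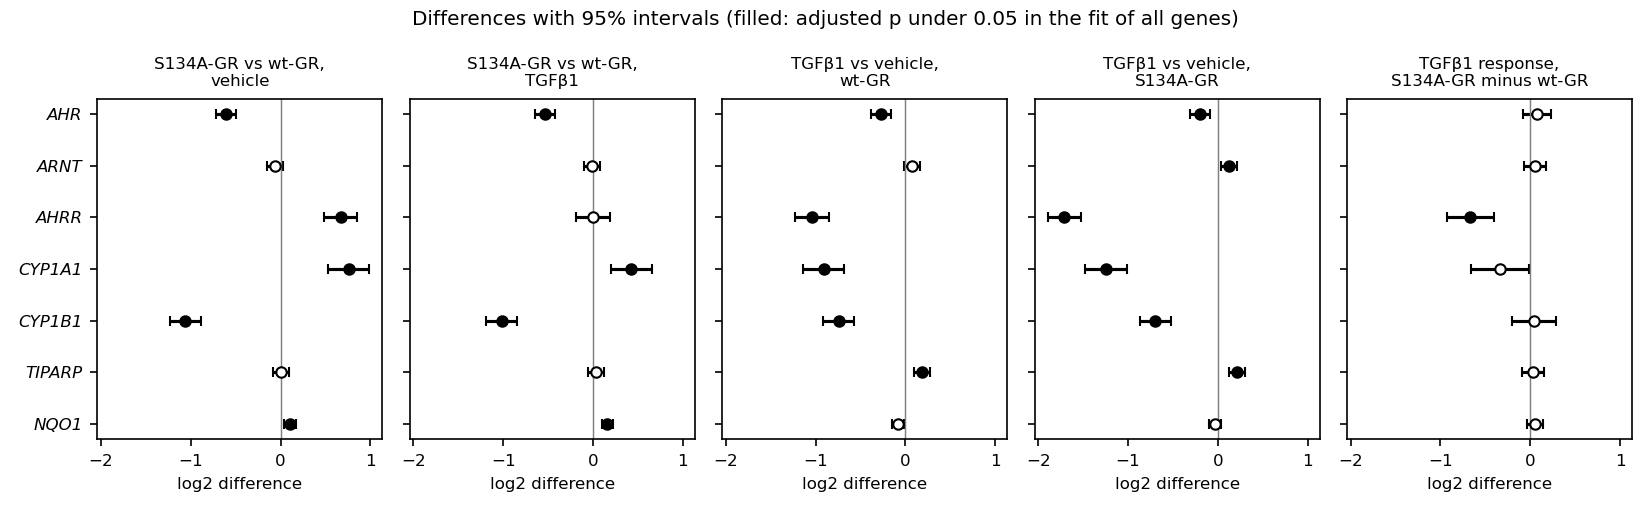
Log2 differences (x axis) of the 7 genes (rows) with 95% intervals in the 5 comparisons (panels), filled where the adjusted p was under 0.05 in the limma fit of all genes. CYP1B1 is near -1 in both comparisons of the lines, AHRR is at 0.67 without and at 0.00 with TGFβ1, and only AHRR is filled in the last panel, at -0.67.

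Levels can be compared between genes only per length of the gene model. Per kilobase, the wt-GR vehicle order in normalized counts was NQO1 (11127), TIPARP (1195), ARNT (736.4), AHR (577.1), CYP1B1 (408.2), AHRR (96.4 ± 6.75) and CYP1A1 (80.9 ± 5.21). In S134A-GR vehicle cells AHR came to 377.5, CYP1B1 to 194.9, AHRR to 153.2 and CYP1A1 to 137.3 ± 9.60 per kilobase. CYP1B1 was thus the more abundant monooxygenase per kilobase in all 4 groups, and the gap to CYP1A1 was narrowest in S134A-GR vehicle cells.

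The genes around each member were compared between the lines as well, where the median of all genes tested under vehicle was 0.02. Nearest here means next in order of start on both sides. Only tested genes with a mean of at least 50 normalized counts in 1 group were taken. The stretch covered can be long, for AHR chr7:10931943-22822849. Of the 20 tested genes nearest CYP1B1, 19 had log2 differences below 0 under vehicle, with a median log2 difference of -0.41 beside -1.06 for CYP1B1, and of the 20 nearest AHR 15 did, with a median of -0.16 beside -0.61. Around TIPARP, itself at 0.00, 14 of 20 were below 0 with a median of -0.22, and around ARNT 5 of 20 with a median of 0.18. The 20 genes nearest CYP1A1 had a median of 0.04, with 8 below 0, and CYP1A1 was the highest of the 21. Around NQO1 1 of 20 was below 0 and the median was 0.22, above NQO1 itself at 0.11. The 14 neighbours of AHRR had a median of 0.20, with 3 below 0. The part of the neighbourhoods in the differences between the lines was not tested. In the TGFβ1 comparison in wt-GR cells the neighbours' medians were -0.07 at CYP1B1, -0.10 at AHR, 0.05 at CYP1A1 and -0.04 at AHRR.

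The genes most alike in pattern were ranked over the 4 groups by the root mean square distance between centred log2 group means, among 13624 genes. They were NAPEPLD for AHRR (distance 0.0740), ADAP2 for CYP1A1 (0.0972), NHSL2 for CYP1B1 (0.0271) and C11orf54 for AHR (0.0208). NAPEPLD had means of 46.1 and 26.1 without and with TGFβ1 in wt-GR cells and 59.6 and 22.3 in S134A-GR cells. Only 1 gene lay within 0.1 of AHRR and 1 of CYP1A1, whereas 284 lay within 0.1 of AHR and 14 of CYP1B1. Such counts depend on how far a member itself departs from its own mean, so no pattern is called unusual. That root mean square was 0.728 for AHRR, 0.621 for CYP1A1, 0.631 for CYP1B1 and 0.310 for AHR. For ARNT (PSMD13), TIPARP (NCBP1) and NQO1 (DNA2), whose groups hardly differ, 3340, 2018 and 2984 genes lay that near.

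Transcripts of the proteins that hold and turn over AhR differed in both directions. Under vehicle, S134A-GR cells had 3 of the 7 genes higher (25% of all genes) and 3 lower (26.5%), with a median of -0.03 beside 0.02 for all genes tested. SRC, a kinase found in the cytosolic AhR complex, was higher by 0.71 (7726 ± 125.9 against 12633 ± 176.8; limma, adjusted p = 1.65e-09), STUB1, a ubiquitin ligase, by 0.40, and the chaperone HSP90AA1 by 0.11. The co-chaperone PTGES3 (-0.25) was lower, as was the ubiquitin ligase scaffold CUL4B (-0.26), and HSP90AB1 was not called (-0.03). With TGFβ1 in wt-GR cells SRC rose by 0.33 and HSP90AB1 by 0.22 and CUL4B fell by 0.27, and in S134A-GR cells PTGES3 rose by 0.25 and HSP90AB1 by 0.18.

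Other bHLH-PAS genes that pair with ARNT, and its paralog ARNT2, were also compared between the lines. Of 6 tested, 1 was higher and 4 lower under vehicle, where 25% and 26.5% of all genes were, with a median of -0.88. EPAS1, which encodes HIF2α, stood at 10761 ± 406.2 in wt-GR and 3242 ± 48 in S134A-GR vehicle libraries (-1.73; limma, adjusted p = 8.35e-12). ARNT2 stood at 1734 ± 76.2 and 647 ± 40.4 (-1.42), NPAS3 at 66.5 ± 13.9 and 21.3 ± 3.27 (-1.59), and NPAS1 at 234.2 ± 30.6 and 440.7 ± 33.1 (0.92). After TGFβ1 EPAS1 rose by 0.73 in wt-GR and 0.36 in S134A-GR cells, while ARNT2 fell by 0.58 and 0.87. Of 9 AhR coregulators 4 were lower (26.5% of all genes) and none higher (25% of all genes) under vehicle (median -0.15), among them RB1 (-0.72), NCOA1 (-0.53), KLF6 (-0.29) and NRIP1 (-0.25).

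Other genes described as AhR targets differed between the lines in both directions. Under vehicle, S134A-GR cells had 2 of the 14 tested higher (25% of all genes) and 8 lower (26.5% of all genes), with a median of -0.43, and under TGFβ1 4 were higher (23.1%) and 8 lower (25.7%). Those higher under vehicle, named after their values were seen, were the transporter gene ABCG2, at 329.5 ± 11.5 in wt-GR and 513.4 ± 17.8 in S134A-GR libraries (0.64), and SERPINB2, at 132.9 ± 17.2 and 195.9 ± 33.6 (0.55). ALDH3A1, an aldehyde dehydrogenase, stood at 80.2 ± 7.24 in wt-GR and 1.21 ± 1.36 in S134A-GR vehicle libraries, the latter under the worth of 3 reads (limma, adjusted p = 7.07e-07), and no fold is given. SCIN went from 28.9 ± 9.08 to 3.71 ± 1.66, HES1, a repressor of transcription, from 2035 ± 136.2 to 632.3 ± 46 (-1.69), and CYP2S1 from 97.9 ± 5.67 to 43.4 ± 5.14 (-1.16). CYP1A2, the paralog beside CYP1A1, had group means of at most 1.86, under the worth of 3 reads. With TGFβ1 in wt-GR cells 3 of 14 were called (21% of all genes): the growth factor gene EREG fell by 0.74, and the amino acid transporter SLC7A5 and HES1 rose by 0.43 and 0.42. The same comparison in S134A-GR cells called EREG (-0.49) and SLC7A5 (0.28).

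**Figure D4:**
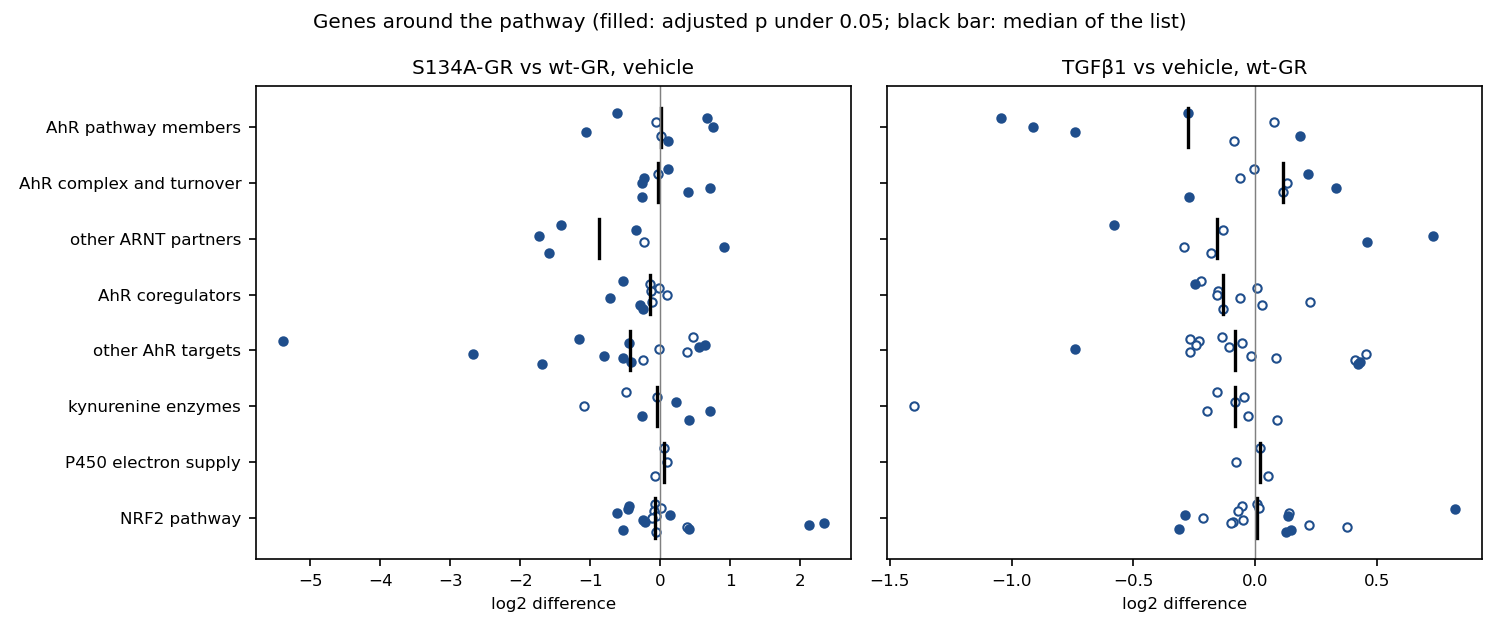
Log2 differences (x axis) of the genes in 8 groups around the pathway (rows), between the lines under vehicle (left) and with TGFβ1 in wt-GR cells (right); points are genes, filled where the adjusted p was under 0.05, and the black bar is the group's median. The other AhR targets extend to the left (median -0.43) in the first panel, where the fitted value of the leftmost point, ALDH3A1, depends on the pseudocount.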

How the data were processed

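Messenger RNA libraries (TruSeq) of 12 MDA-MB-231 samples were sequenced on the Illumina HiSeq2500 as 75-base pairs. The authors used Trimmomatic for trimming, HISAT2 for alignment to hg38 and featureCounts (Subread) for counts per gene. The strand setting and annotation are not given in the sources used here. The deposited signal is normalized counts, which the authors made with DESeq2 (version 1.22.2) by dividing each library by its size factor. Here, the smallest value above 0 in a library was taken as 1 read, although the sources used here do not say whether reads or pairs were counted. All values were then whole within 0.01, size factors were 0.614 to 1.40, and reads per library were 56362036 to 129832227, a depth that sets counting error only.

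Groups came from the labels. Genes with at least 10 reads summed over 12 libraries were tested with limma 3.58.1 (R 4.3.3) on log2(normalized count + 1), with 4 group means, a variance trend and Benjamini-Hochberg adjustment over 18579 genes. Fold changes on this scale understate those of low genes. Tests with edgeR 4.0.16 and DESeq2 1.42.0 on recovered reads were alternatives, and the script was tested on simulated data. Libraries of a group differed by 9.06 to 46.2 times the variance that counting alone gives, so none was a second deposit of the same reads, while repeat preparations of one culture are not tested by this. The members and lists were chosen with earlier results of these data known. Adjusted p printed for list genes therefore describes the fit and is not an independent test. From each list up to 4 called genes with the largest difference in a comparison are named. Every gene of the AhR complex, AHRR locus, P450 electron supply, TGFβ1 check and NR3C1 lists may be named. A few items of the lists are not reported here. Gene models were GENCODE 44 (GRCh38) and start sites RefSeq. NPAS4, UGT1A1, UGT1A6, GSTA1, GSTA2, IDO1, IDO2, PGR, CD3E, TTR and PDCD6-AHRR are not analysed here.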

Additional observations from a re-analysis of the deposited data

Results flagged for a closer look

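In 3 genes of the pathway and its lists the response to TGFβ1 was called as differing between the lines, by the interaction term of the limma fit of all genes. For AHRR, chosen on differences among these libraries and so only described, the S134A-GR minus wt-GR value was -0.67 on the log2 scale. Among 22 other settings it ranged from -0.59 to -0.76 and was called in 11, and the call was lost in 9 of the 12 fits that left out 1 library, without the variance trend and with the replicate block. EPAS1 had a difference of -0.37 (adjusted p = 0.034), with a rise of 0.73 in wt-GR and 0.36 in S134A-GR cells. SRC had a difference of -0.31 (adjusted p = 0.016), with a rise of 0.33 in wt-GR cells and a value of 0.03 in S134A-GR cells that was not called. EPAS1 and SRC come from lists also chosen with earlier results of these data known. Their adjusted p therefore describes the fit and is not an independent test. Whether their calls hold when 1 library is left out was not examined.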

How the results depend on the processing

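Results were recomputed under up to 24 other settings, 12 of which left out 1 library; a minimum size applied only to counts, and the fit of only the groups compared was not possible for the difference of responses. Of 798 member values 760 kept their direction and side of the threshold, 23 lost the call, 3 gained it (all NQO1 with TGFβ1 in wt-GR cells) and 12 that were not called changed sign near 0. The members called were 5 under vehicle and 4 under TGFβ1 between the lines when any 1 library was left out, 5 to 6 for TGFβ1 in wt-GR cells, 4 to 6 in S134A-GR cells, and 0 to 1 for the difference of responses. Of all genes, the same fits called 8478 to 9695 under vehicle and 8063 to 9381 under TGFβ1 between the lines. For TGFβ1 against vehicle they called 2800 to 4377 in wt-GR and 2497 to 3830 in S134A-GR cells. When a log2 difference of at least 1 was also required, 1, 1, 1, 2 and 0 members were called in these 5 comparisons, and 1767, 1571, 425, 309 and 11 of all genes (9569, 9070, 3910, 3475 and 77 without it). For the difference of responses, the count of members was 0 without the variance trend, where 29 of all genes were called, and DESeq2 called 208. Leaving out 1 library gave 22 (without the first wt-GR TGFβ1 library) to 166 (without the third wt-GR vehicle library). The ARNT call with TGFβ1 in S134A-GR cells was also lost with TMM scaling (0.13) and without the trend. The cause was not tested.

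Replicate numbers did not pair the samples: of 18 same-numbered pairs 2 had correlated deviations above 0.1 (mean r 0.00025, across genes), and 4 of 12 libraries were most alike one of their own number. With the replicate block the members called for the difference of responses were 0, since the AHRR call was lost (its value stayed at -0.67), and the block changed no other count of members. The depth allowed values above the worth of 3 reads for all 7 members, and CYP1A2, ALDH3A1 in S134A-GR cells and SCIN in S134A-GR cells lay near or under it.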

Other observations

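The enzymes that make and use kynurenine, a tryptophan product that binds AhR, were called between the lines under vehicle about as often as all genes. Under vehicle, 3 of 7 tested were higher (25% of all genes) and 1 lower (26.5%) in the S134A-GR line (median -0.04): CCBL1, a kynurenine aminotransferase, at 1260 ± 27.7 in wt-GR and 2070 ± 60.1 in S134A-GR libraries (0.71; limma, adjusted p = 7.69e-07), AADAT (0.42), KYNU (0.23) and CCBL2 (-0.26). Of the genes that supply electrons to cytochrome P450 enzymes, POR (0.05), CYB5A (0.09) and CYB5R3 (-0.08) were not called under vehicle, and with TGFβ1 CYB5R3 was lower in the S134A-GR line (-0.11).

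In the NRF2 pathway, which shares NQO1 with AhR, the shares called between the lines under vehicle were near those of all genes. Under vehicle, 4 of 17 genes were higher (25% of all genes) and 6 lower (26.5%) in the S134A-GR line (median -0.08). The aldo-keto reductase genes AKR1C1 and AKR1C2 were higher, AKR1C1 at 167.6 ± 5.20 and 853 ± 10.7 (2.34; limma, adjusted p = 5.65e-11) and AKR1C2 at 64.3 ± 30.2 and 262 ± 23.2 (2.13), but these near-identical paralogs can share reads. GCLM, a subunit of the enzyme that limits glutathione synthesis, was lower (-0.61), as was ME1, malic enzyme (-0.53). NFE2L2, the gene of NRF2 itself, chosen after its values were seen, was lower at 9618 ± 130.3 and 7063 ± 281.2 (-0.45). Between the lines under TGFβ1, 4 of the 17 genes were higher (23.1% of all genes) and 8 lower (25.7%) in the S134A-GR line. With TGFβ1 in wt-GR cells 4 of the 17 rose (11.2% of all genes) and 2 fell (9.82%). Among them HMOX1, heme oxygenase, rose by 0.82 in wt-GR and 0.61 in S134A-GR cells. TXNRD1, thioredoxin reductase, fell by 0.29 and 0.17.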
